A study of Mus musculus with 16 samples.

Results

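The epithelium of the small intestine was compared between its 2 compartments in cells that are not enterochromaffin (EC) cells, an endocrine cell type that makes most of the serotonin of the body. The 8 libraries described here were those titled as intestinal epithelial cells of the crypt (crypt epi, 4 libraries) or of the villus (villus epi, 4 libraries), out of 16 in the series, and they were taken by title alone. The other 8 libraries held EC cells of both sites, again with 4 each.

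All groups came from untreated Tph1-CFP mice aged 8 to 16 weeks, in which cyan fluorescent protein (CFP) under Tph1, the gene of the serotonin-synthesising enzyme, marks EC cells. Crypt and villus fractions of the whole small intestine were dissociated separately, sorted by fluorescence, and 5000 CFP-negative cells were pooled for each epi library. A crypt epi library therefore mixes all CFP-negative cell types of the fraction along the length of the small intestine, and so does a villus epi library. Each group is given as 4 mice or samples, with no statement of which number marks a mouse, so the p-values measure the spread between these samples.

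In the small intestine, stem cells at the crypt base divide and send daughter cells upward. The daughters go through a zone of rapid division, leave the cell cycle near the crypt mouth and move along the villus until they are shed at its tip. Most become enterocytes, which absorb nutrients through a brush border of microvilli. Others become mucus-secreting goblet cells, endocrine cells or chemosensory tuft cells, and the Paneth cells stay at the crypt base and secrete antimicrobial proteins. Wnt signals and Paneth cells sustain the stem cells below, while bone morphogenetic protein (BMP) signals increase toward the villus.

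Values are FPKM, a level per length of transcript and per size of library, as deposited, given in the order of replicates 1 to 4 where 4 values are listed. Fold changes are villus epi minus crypt epi on the log2(FPKM + 1) scale, which understates the change of genes with low values. Calls were made where limma's moderated test gave an adjusted p under 0.05 (Benjamini-Hochberg, 12281 genes), and "rose" or "fell" is used only of called genes.

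Both labels held against their markers. Lyz1, the lysozyme gene of Paneth cells, was at 52248, 50270.0, 46357 and 49456 in crypt epi and 48.5, 57.4, 70.9 and 44.7 in villus epi. Apoa4, an apolipoprotein of enterocytes on the villus, was at 216, 176, 58.4 and 187 in crypt epi and 12536, 3364, 14270.5 and 13192 in villus epi. Crypt and villus libraries did not overlap for either gene. Epcam, a surface protein of epithelial cells, was at 974, 865, 977 and 931 in crypt epi and at 2188, 2148, 1956 and 1881 in villus epi, so all 8 libraries held epithelial transcripts. Its higher villus level was not that of general epithelial genes as a list. Of 14 tested members, 7 fell and 2 rose (median -0.76), and the list summed to 14416 to 15220 in crypt epi and 6881 to 13369 in villus epi.

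Villus epi replicate 2 stood apart from its group. Its log2 values had a mean correlation across tested genes of 0.791 with the other villus epi libraries, against 0.915 to 0.919 for those 3 and 0.978 to 0.983 for the crypt epi libraries. In it, 18.5% of tested genes lay more than 2 log2 units from the mean of the other 3 villus epi libraries (1009 above and 1260 below), where the same share was 0.0814% to 0.765% in the other 7 libraries. Column totals were 1045160.2 to 1136983 in crypt epi, 1190722 in villus epi replicate 2 and 1390685 to 1415123 in the other 3, and the depth of sequencing is unknown. The count of genes at a value of 1 or more was 12651 in replicate 2 against 11318 to 11584 in the other villus epi libraries. Every comparison was therefore repeated without this library, and values without it, or without another library, are given where a named call or a count of called members depends on them.

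**Figure D1:**
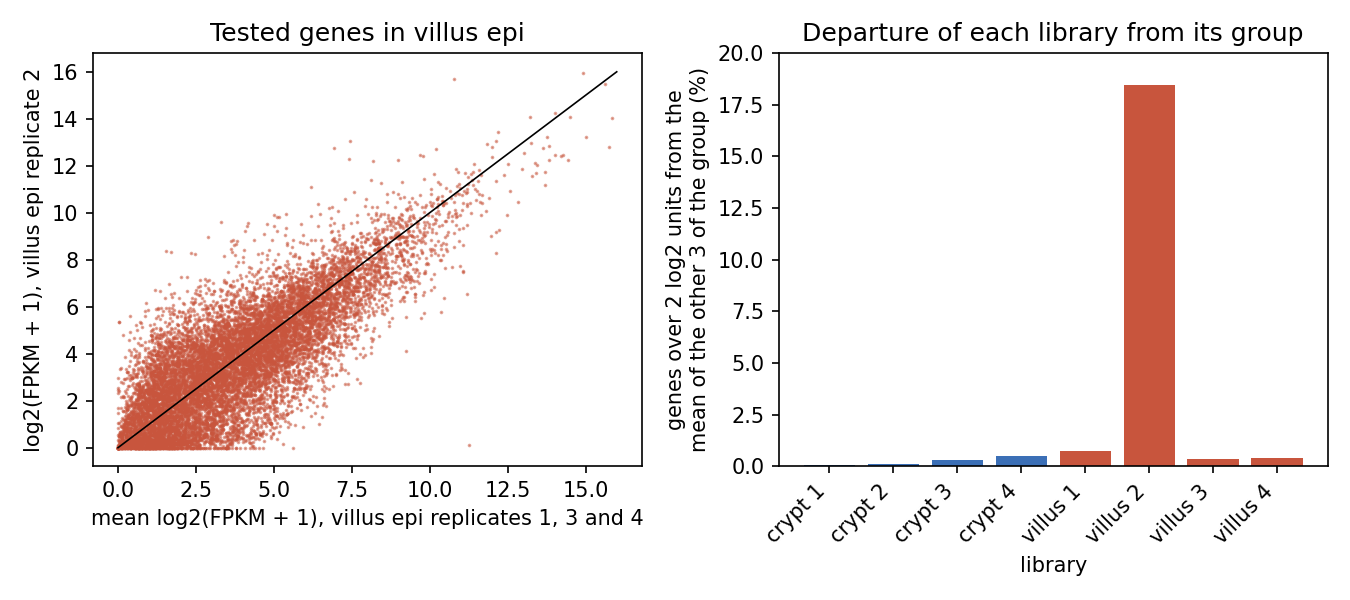
Left, log2(FPKM + 1) of each tested gene in villus epi replicate 2 (vertical axis) against the mean of villus epi replicates 1, 3 and 4 (horizontal axis), with the line of equality. Right, the share of tested genes more than 2 log2 units from the mean of the other 3 libraries of the same group, for the 4 crypt epi (blue) and 4 villus epi (red) libraries; villus epi replicate 2 reaches 18.5% and no other library exceeds 0.765%.

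A large share of the tested transcriptome differed between the compartments. Of 12281 genes tested, 1979 (16.1%) rose and 3967 (32.3%) fell from crypt to villus, 48.4% in either direction. The change was at least 2-fold for 1468 of the genes that rose and for 3215 of those that fell. The 4 villus and the 4 crypt values did not overlap for 6477 genes (52.7%), among them 1824 of those that rose and 3774 of those that fell. Genes that are high at 1 site alone pass the filter on low values through that site, so counts of called genes below are read against these shares.

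Without villus epi replicate 2, 3501 of 12523 genes (28%) rose and 5523 (44.1%) fell. All 1979 genes that rose in 8 libraries also rose in 7, and 3963 of the 3967 that fell also fell. No gene was called in opposite directions. Of genes tested both with and without replicate 2, 2918 were called only without it. The median difference over all genes tested was -0.28 on the log2 scale with all 8 libraries and -0.25 without it. The balance of rises and falls depended on how libraries were scaled: 33.3% of called genes rose with the deposited values, 23.2% with equal totals (1506 up, 4990 down), 38.1% with median-ratio scaling and 45.5% with quantile normalization (2676 up, 3200 down). The median over all genes was -0.54, -0.18 and -0.04 under these 3 scalings, and changes below are best read relative to it.

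The largest falls were in genes known from Paneth cells. The 15 with the largest fall, by the rule for named genes, were Defa5, Defa17, Ang4, Defa30, Lyz1, Mptx2, Defa35, Defa39, Defa20, Defa-ps10, Pla2g2a, Defa32, Defa3, Defa37 and Defa29. The Defa genes encode cryptdins, the alpha-defensins of Paneth cells, and Ang4 and Pla2g2a encode further secreted antimicrobial proteins. The 15 with the largest rise were Ly6m, Mbl2, Clca4a, Apoc2, Cyp3a11, Apoc3, Selenop, Apoa4, Ada, Pmp22, Susd2, Dnase1, Sprr2a2, Sectm1b and Apol9a.

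**Figure D2:**
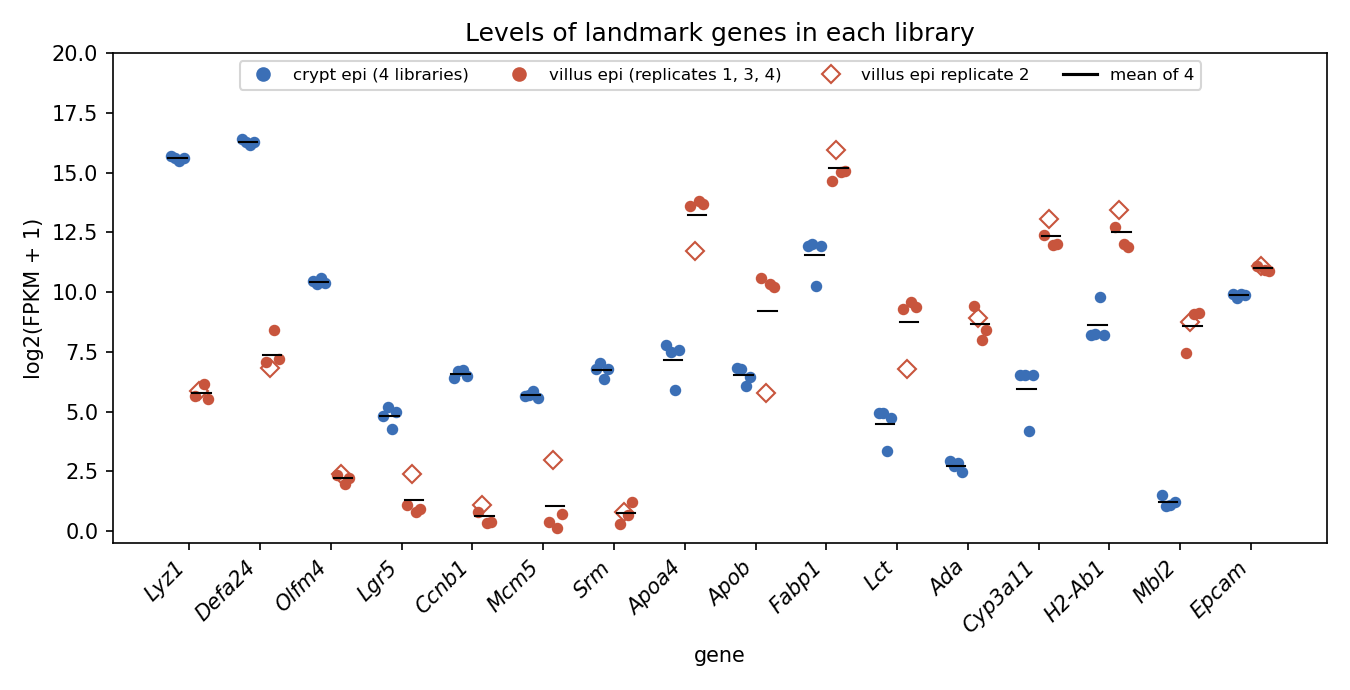
Log2(FPKM + 1) of 16 landmark genes (horizontal axis) in each library of crypt epi (blue) and villus epi (red), with villus epi replicate 2 as open diamonds and short black lines at the mean of 4 libraries. Crypt and villus points are separate for every gene drawn except Apob, where replicate 2 (53.7) sits below the crypt libraries while the other villus libraries reach 1175 to 1524.

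Among Paneth cell genes, 29 of 31 tested members (32 listed) fell and 1 rose, with a median log2 fold change of -5.60. Defa24, the most abundant transcript of all 4 crypt epi libraries, was at 86016, 79982, 72391 and 79604 in crypt epi and 135, 113, 338 and 145 in villus epi (log2 fold change -8.90 ± 0.32 (SE), adjusted p = 7.63e-07). In crypt epi, this 1 gene took 6.93% to 7.57% of the library total. The summed Paneth list took 24.8% to 27.4% of the total in crypt epi and 0.992% to 2.24% in villus epi. Fewer cells of a type and less RNA per cell cannot be told apart in such pooled samples, here or in the groups below.

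Further Paneth cell genes fell by a similar size. Lyz1, whose values are given above, fell (log2 fold change -9.80 ± 0.17 (SE), adjusted p = 1.72e-08). Ang4, an angiogenin with antimicrobial activity, was at 11886, 11380.2, 11131 and 11307 in crypt epi and 8.69, 20.8, 10.5 and 6.28 in villus epi (log2 fold change -9.95 ± 0.30 (SE), adjusted p = 2.38e-07). Mmp7, the protease that activates cryptdins, was at 572, 477, 512 and 514 in crypt epi and 0.233, 0.629, 0.784 and 0.248 in villus epi (log2 fold change -8.48 ± 0.18 (SE), adjusted p = 3.24e-08). No villus epi library came near any crypt epi library for these 3 genes. Itln1, a lectin that binds microbial sugars, was at 25066, 27754, 23253 and 24235 in crypt epi and 80.5, 194, 67.2 and 48.2 in villus epi (log2 fold change -8.19 ± 0.38 (SE), adjusted p = 1.73e-06), and Pla2g2a, a secreted phospholipase, at 9406, 7868, 8368 and 8818 in crypt epi and 10.2, 16.2, 10.1 and 9.11 in villus epi (log2 fold change -9.47). Mptx2, a pentraxin of Paneth cells, had a log2 fold change of -9.79.

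The largest fall was that of Defa5, at 5367, 3964, 3856 and 4530.3 in crypt epi and 0.00516, 4.42, 0.0042 and 0.0129 in villus epi (log2 fold change -11.48 ± 0.53 (SE), adjusted p = 1.76e-06). Villus epi replicate 2 held nearly all of the little signal left, and without it the log2 fold change was -12.09. Defa17 (log2 fold change -10.19) and Defa30 (-9.88) kept some signal in all villus epi libraries, at 20.9, 23.5, 28.2 and 24.2 for Defa17 and at 17.4, 23, 70.2 and 11 for Defa30. The Defa genes are near-identical copies, so how the reads were split among them is uncertain. The single member of the list that rose was Guca2b, which encodes uroguanylin, a peptide that stimulates fluid secretion and is also made by enterocytes: 2126, 2371, 1034 and 2185 in crypt epi and 11372, 19256, 19878 and 19746 in villus epi (log2 fold change 3.22 ± 0.32 (SE), adjusted p = 6.4e-05).

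On mm10, the marker genes given for the 2 sites are Lyz1 (ENSMUSG00000069515, chromosome 10, 117287797 to 117292868, minus strand) and Apoa4 (ENSMUSG00000032080, chromosome 9, 46240696 to 46243459, plus strand). On the same stretch of the chromosome as Apoa4 lie 2 other apolipoprotein genes that rose, Apoa1 (ENSMUSG00000032083, chromosome 9, 46228580 to 46230466, plus strand) and Apoc3 (ENSMUSG00000032081, chromosome 9, 46232933 to 46235636, minus strand). The most abundant crypt transcript came from Defa24 (ENSMUSG00000064213, chromosome 8, 21734494 to 21735471, plus strand).

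Most transcripts of stem cells were far lower in the villus. Of 28 tested stem cell genes (33 listed), 24 fell and 2 rose (median -2.79), and their sum was 2608 to 2761 in crypt epi against 186 to 218 in villus epi. Olfm4, a secreted glycoprotein of stem and early progenitor cells, was at 1389.7, 1277, 1530.0 and 1343 in crypt epi and 4.02, 4.26, 2.88 and 3.59 in villus epi (log2 fold change -8.21 ± 0.15 (SE), adjusted p = 1.72e-08). Lgr5, the R-spondin receptor that marks cycling stem cells, was at 27.4, 35.2, 18.1 and 30.5 in crypt epi and 1.1, 4.24, 0.745 and 0.89 in villus epi (log2 fold change -3.51 ± 0.39 (SE), adjusted p = 0.000125). Olfm4 was uniform within each site, while Lgr5 in villus epi replicate 2 was several times the level of the other 3.

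Ascl2, the transcription factor that maintains Lgr5-positive cells, was at 22.5, 21.4, 16.4 and 25.6 in crypt epi and 0.0353, 0.192, 0.0365 and 0.127 in villus epi (log2 fold change -4.34 ± 0.20 (SE), adjusted p = 1.61e-06). Smoc2, a matricellular protein, was at 140.5, 152, 120.1 and 127 in crypt epi and 0.352, 0.17, 0.613 and 1.01 in villus epi (log2 fold change -6.49 ± 0.22 (SE), adjusted p = 4.2e-07), and Clca3b, another gene high in stem cells, had a log2 fold change of -5.89. Sox9, a transcription factor of stem and Paneth cells, fell from 43.2, 42.7, 36.7 and 40.6 in crypt epi to 1.16, 2.22, 0.815 and 0.577 in villus epi (log2 fold change -4.30 ± 0.25 (SE), adjusted p = 4.42e-06). The 2 sites did not overlap for Ascl2, Smoc2 or Sox9.

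Genes of the Wnt pathway fell in part. Of 25 tested members, 12 fell, 1 rose and 12 were not called (median -0.82). The count of rises was 2 without villus epi replicate 2 and 0 without any other single library or with equal totals. Axin2, a feedback inhibitor and direct Wnt target, was low throughout, at 2.06, 1.77, 1.77 and 1.85 in crypt epi and 0.611, 0.73, 0.817 and 0.355 in villus epi (log2 fold change -0.82 ± 0.15 (SE), adjusted p = 0.00216). Myc, which drives growth and ribosome production, was at 62, 59.3, 52.5 and 55.6 in crypt epi and 1.2, 1.77, 2.87 and 0.541 in villus epi (log2 fold change -4.57 ± 0.29 (SE), adjusted p = 6e-06), and Ccnd2, a D-type cyclin, at 401, 388, 345 and 362 in crypt epi and 22.3, 44.5, 21.7 and 17.4 in villus epi (log2 fold change -3.86 ± 0.27 (SE), adjusted p = 1.01e-05). Wls, which carries Wnt ligands to the cell surface, had a log2 fold change of -3.67. Lgr4, the receptor related to Lgr5, was at 7.42, 9.18, 12.5 and 16.7 in crypt epi and 2.95, 311, 4.99 and 4.68 in villus epi and was not called. Without replicate 2, whose value was far above the others, Lgr4 fell by 1.22 on the log2 scale (adjusted p = 0.00316).

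Eph receptors, which sort cells along the crypt axis by repulsion from ephrin-B ligands, were mostly lower in the villus or not called. Of 10 tested Eph and ephrin genes, 5 fell and 1 rose (2 without replicate 2). Ephb4 was at 37.4, 43.6, 37.4 and 40.2 in crypt epi and 0.439, 0.218, 2.35 and 1.64 in villus epi (log2 fold change -4.35 ± 0.34 (SE), adjusted p = 1.8e-05), Ephb3 had a log2 fold change of -2.34 and Ephb2 of -0.96. Epha2 was the member that rose, at 3.37, 3.88, 2.66 and 3.45 in crypt epi and 17.1, 5.83, 14.7 and 15.6 in villus epi (log2 fold change 1.63 ± 0.33 (SE), adjusted p = 0.00342). The ligand gene Efnb1 was at 24.3, 27.1, 23.6 and 23 in crypt epi and 29, 14, 30.1 and 26.3 in villus epi and was not called (log2 fold change -0.03 ± 0.25 (SE), adjusted p = 0.921), and its sign depended on scaling. In the Notch pathway, which sets the choice between absorptive and secretory fates, 6 of 12 tested members fell and 0 rose. Atoh1, the factor that commits cells to secretory fates, was at 130.0, 139, 111 and 128 in crypt epi and 23.3, 4.63, 19.9 and 13.2 in villus epi (log2 fold change -3.17 ± 0.42 (SE), adjusted p = 0.000351).

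Mitotic genes fell together. Of 34 tested genes of mitosis and G2 phase, 33 fell and 0 rose (median -3.59), and 34 fell without villus epi replicate 2. Their sum was 1302 to 1621 in crypt epi and 39.3 to 152 in villus epi, where the highest sum was that of replicate 2. Promoters of 4 such genes and of 2 villus genes are shown as examples, each with a match to the motif marked in it. They are not a sample of their groups, whose shares are given below. Each line holds the 150 bases before the RefSeq gene start on GRCm38.p6, 5′ to 3′ on the strand of the gene. Capitals mark CCAAT or its reverse complement ATTGG, the core bound by NF-Y, in the first 4, and CAAAGTC or GACTTTG, a core of HNF4 sites, in the last 2. The regions are chr13:100786487-100786636, chr9:70421555-70421704, chr10:69352913-69353062, chr4:118437344-118437493, chr9:98490387-98490536 and chr5:145879855-145880004 in the order of the lines, on the plus strand for Rbp2 and on the minus strand for the rest.
Ccnb1: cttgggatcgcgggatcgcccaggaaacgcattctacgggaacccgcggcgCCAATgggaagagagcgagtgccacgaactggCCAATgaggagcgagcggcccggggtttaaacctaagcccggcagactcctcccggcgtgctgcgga
Ccnb2: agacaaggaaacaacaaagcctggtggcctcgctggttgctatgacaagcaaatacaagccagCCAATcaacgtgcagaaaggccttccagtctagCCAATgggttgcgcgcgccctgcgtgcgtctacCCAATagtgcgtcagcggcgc
Cdk1: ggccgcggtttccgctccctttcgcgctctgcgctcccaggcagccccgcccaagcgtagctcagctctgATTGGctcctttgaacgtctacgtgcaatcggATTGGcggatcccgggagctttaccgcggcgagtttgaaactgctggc
Cdc20: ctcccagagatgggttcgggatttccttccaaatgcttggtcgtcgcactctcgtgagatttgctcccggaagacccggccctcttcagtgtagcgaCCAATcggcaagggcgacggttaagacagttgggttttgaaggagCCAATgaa
Rbp2: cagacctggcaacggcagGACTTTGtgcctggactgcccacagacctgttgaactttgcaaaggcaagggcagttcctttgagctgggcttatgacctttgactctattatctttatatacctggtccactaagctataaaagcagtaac
Cyp3a11: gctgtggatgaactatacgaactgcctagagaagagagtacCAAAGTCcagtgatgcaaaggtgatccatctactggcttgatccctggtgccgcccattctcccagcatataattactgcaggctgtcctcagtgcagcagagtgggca

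Over the 250 bases before the start and both strands, CCAAT was present for 22 of 28 mitotic genes with a promoter in the table (78.6%), for 17 of 29 genes of S phase (58.6%) and for 37.5% of all 27025 genes with one. Among tested genes, it was present for 42.8% of those that fell, 40.4% of those that rose and 41.1% of those not called. The share was 34.3% for ribosomal protein genes and 27.3% for ribosome biogenesis genes, all of which fell where tested. A high share of CCAAT was not particular to mitotic genes. It was 76.2% for the unfolded protein response and secretory pathway and 72% for intestinal transcription factors. Lists with rising genes ranged from 85.7% for MHC class II (6 of 7 genes) and 63.6% for peptide digestion to 42.9% for lipid absorption and 30.8% for amino acid transporters. CAAAGTC was present for 7 of 35 genes of xenobiotic and retinoid metabolism (20%), 6.36% of genes that rose, 3.86% of those that fell and 4.33% of all genes. Other lists with rising genes varied: it was present for 2 of 11 genes of peptide digestion (18.2%), 2 of 13 of sugar digestion and transport (15.4%), 1 of 15 villus tip genes (6.67%), 1 of 21 of lipid absorption (4.76%) and 0 of 18 of fatty acid oxidation. These are matches of letters in a window, out of 4 motifs searched, and no binding was measured. TTTGGCG, an E2F core, was present for 4 of 29 genes of S phase and 1.45% of all genes. Among tested genes it was present for 2.08% of those that rose, 2.78% of those that fell and 2.38% of those not called. TATAAA was present for 14.3% of all genes. Among tested genes its shares were 12.6%, 7.78% and 7.85% in the same order. A promoter was found by symbol for 9292 of 12281 tested genes.

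The mitotic genes printed above had low values in every villus epi library. Ccnb1, which encodes cyclin B1, was at 83.2, 102, 107 and 87.5 in crypt epi and 0.726, 1.11, 0.254 and 0.315 in villus epi (log2 fold change -5.93 ± 0.23 (SE), adjusted p = 8.94e-07). Its partner kinase Cdk1 was at 94.7, 114, 123 and 97.4 in crypt epi and 1.95, 3.17, 0.678 and 1.12 in villus epi (log2 fold change -5.39 ± 0.29 (SE), adjusted p = 3.2e-06), and Cdc20, the activator of the anaphase-promoting complex, at 104, 119, 115 and 112 in crypt epi and 0.43, 0.291, 0.582 and 0.231 in villus epi (log2 fold change -6.36 ± 0.17 (SE), adjusted p = 1.21e-07). The sites did not overlap for any of the 3, and the villus values of Cdc20 all stayed below 1. Ccnb2 had a log2 fold change of -5.22, and Aurkb, a kinase of chromosome segregation, of -5.24. Mki67, the proliferation antigen, was at 10.9, 11.2, 12.4 and 10.2 in crypt epi and 0.435, 0.353, 0.0807 and 0.109 in villus epi (log2 fold change -3.30 ± 0.18 (SE), adjusted p = 3.26e-06). Top2a, a topoisomerase, was at 56.9, 54.1, 84.1 and 54.4 in crypt epi and 1.37, 11.2, 0.48 and 0.73 in villus epi, so that replicate 2 held most of the villus signal (log2 fold change -4.41 ± 0.62 (SE), adjusted p = 0.00049, and -5.09 without it).

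Genes of DNA replication followed, with 32 of 36 tested members lower and 1 higher (median -2.66). Mcm3, a subunit of the replicative helicase, was at 39, 41.2, 43.3 and 35.2 in crypt epi and 0.0689, 0.46, 0.0889 and 0.0367 in villus epi (log2 fold change -5.14 ± 0.20 (SE), adjusted p = 9.01e-07). Mcm5, another subunit, was at 48.5, 51.3, 56.7 and 46.7 in crypt epi and 0.283, 6.78, 0.0816 and 0.618 in villus epi (log2 fold change -4.66 ± 0.58 (SE), adjusted p = 0.000232, and -5.30 without replicate 2). Mcm6 was less reduced, at 109, 109.7, 120.2 and 103 in crypt epi and 11.3, 19.4, 21.8 and 15.9 in villus epi (log2 fold change -2.66 ± 0.21 (SE), adjusted p = 1.89e-05), and Pcna, the sliding clamp, was at 87.1, 78.7, 90.9 and 82.5 in crypt epi and 19.5, 34.6, 19.8 and 18.9 in villus epi (log2 fold change -1.87 ± 0.21 (SE), adjusted p = 0.00014). Fall sizes thus ranged widely among genes of the same complex. Rrm2, a subunit of ribonucleotide reductase, had a log2 fold change of -4.92.

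Among genes of cell cycle exit, 7 of 15 tested members rose and 1 fell. Ccng2, an atypical cyclin linked to cell cycle arrest, was at 19.8, 15.9, 15.5 and 22.8 in crypt epi and 366, 355, 346 and 385 in villus epi (log2 fold change 4.24 ± 0.16 (SE), adjusted p = 8.07e-07), with villus values that varied little. Mxd1, an antagonist of Myc, was at 46.7, 42.9, 25 and 45.5 in crypt epi and 684, 498, 476 and 470.4 in villus epi (log2 fold change 3.72 ± 0.23 (SE), adjusted p = 5.75e-06). Cdkn1a, the p21 inhibitor of cyclin-dependent kinases, was at 166, 176, 131 and 168 in crypt epi and 585, 1136, 603 and 611 in villus epi (log2 fold change 2.14 ± 0.24 (SE), adjusted p = 0.000121), highest in replicate 2.

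The machinery of protein synthesis fell without exception among the listed genes. All 46 tested ribosomal protein genes fell (median -2.61, range -4.87 to -1.68), also without replicate 2 and under each of the 3 other scalings. Rpl3 was at 199, 182, 185 and 195 in crypt epi and 4.03, 4.97, 7.68 and 6.06 in villus epi (log2 fold change -4.87 ± 0.19 (SE), adjusted p = 9.57e-07). Rpl13 was at 1528, 1381, 1456 and 1476 in crypt epi and 78.8, 45.5, 89.3 and 86.7 in villus epi (log2 fold change -4.31 ± 0.22 (SE), adjusted p = 2.41e-06), and Rps19 at 1245, 1203, 1272 and 1198 in crypt epi and 55.9, 34.7, 71.6 and 53.2 in villus epi (log2 fold change -4.53 ± 0.21 (SE), adjusted p = 1.72e-06). No crypt and villus values overlapped for any of the 46 genes. Their summed share of the library was 1.8% to 2.08% in crypt epi and 0.197% to 0.298% in villus epi. Ribosomal protein genes have many processed pseudogenes, so some of their reads may have been assigned elsewhere.

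All 27 tested genes of ribosome biogenesis fell as well (median -3.24). Nop56, a core protein of box C/D nucleolar particles, was at 246, 274, 194 and 232 in crypt epi and 9.82, 6.85, 5.12 and 8.54 in villus epi (log2 fold change -4.81 ± 0.21 (SE), adjusted p = 1.48e-06). Gar1, of the box H/ACA particles, was at 42.5, 55, 42.6 and 50.4 in crypt epi and 1.31, 0.445, 0.86 and 0.299 in villus epi (log2 fold change -4.84 ± 0.24 (SE), adjusted p = 2.25e-06). In nucleotide, one-carbon and polyamine synthesis, 22 of 25 tested members fell and 0 rose (median -2.88). Srm, spermidine synthase, was at 107, 129, 80.7 and 109 in crypt epi and 0.22, 0.717, 0.59 and 1.35 in villus epi (log2 fold change -5.99 ± 0.25 (SE), adjusted p = 1.26e-06). Mthfd1, a folate enzyme, and Gart, of purine synthesis, had log2 fold changes of -4.91 and -4.63. For Srm, each villus value was below 2 and each crypt value above 80.

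**Figure D3:**
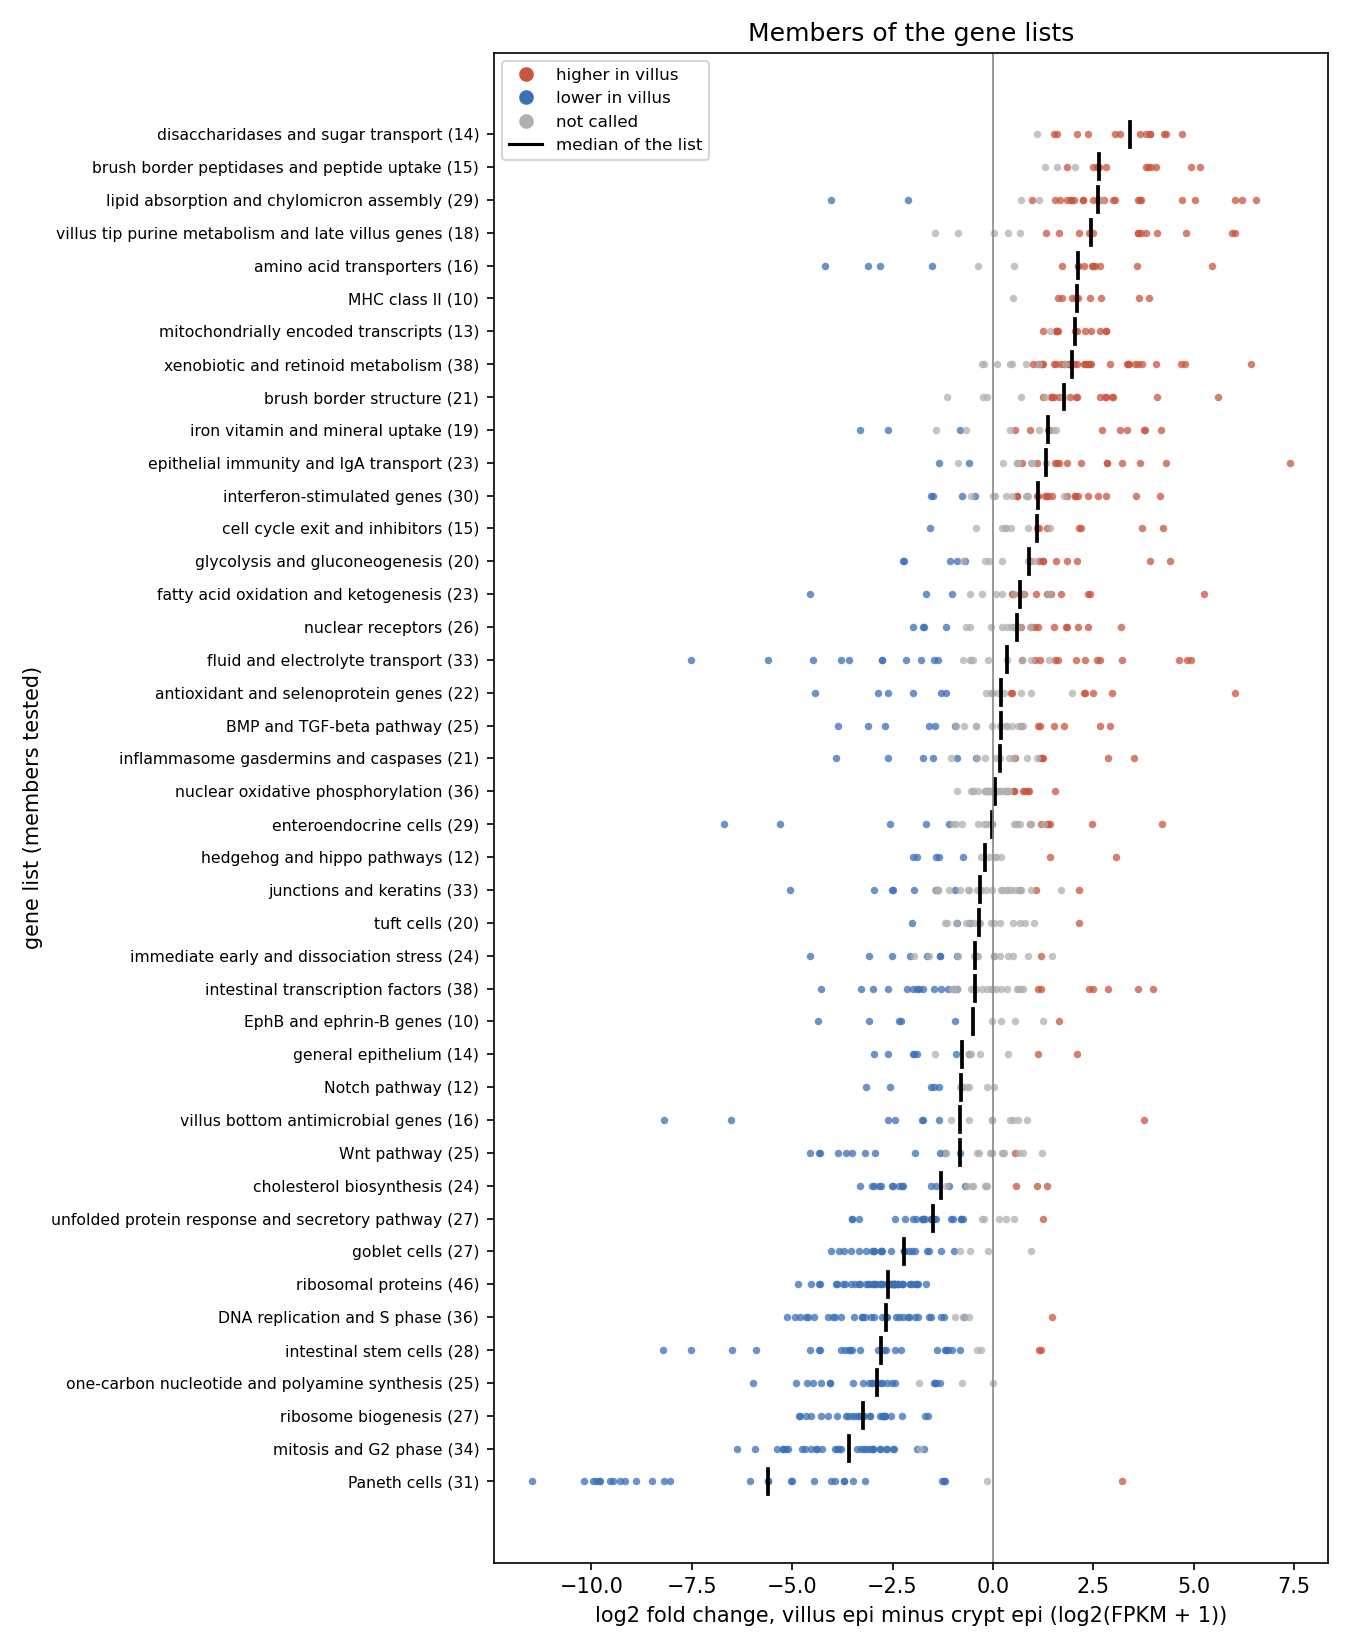
Log2 fold change (villus epi minus crypt epi on the log2(FPKM + 1) scale, horizontal axis) of each tested member of the gene lists with 10 or more tested members, apart from those on shedding and on segments of the intestine (vertical axis, number tested in brackets). Points are red where the gene rose, blue where it fell and grey where it was not called, and black bars are list medians; the lists run from Paneth cells (median -5.60) to disaccharidases and sugar transport (3.41), and no ribosomal or ribosome biogenesis gene lies above 0.

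Genes of the endoplasmic reticulum and of secretion were lower in the villus. Of 27 tested genes of the unfolded protein response and secretory pathway, 21 fell and 1 rose (median -1.49). Pdia6, a disulfide isomerase, was at 448, 478, 469 and 449 in crypt epi and 43.6, 30.5, 42.4 and 41.8 in villus epi (log2 fold change -3.52 ± 0.15 (SE), adjusted p = 1.21e-06). Txndc5, another, was at 497, 499.8, 447 and 485 in crypt epi and 80.9, 9.62, 65.5 and 55.1 in villus epi (log2 fold change -3.51 ± 0.58 (SE), adjusted p = 0.0012). Both were lowest in replicate 2.

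Most goblet cell genes fell, abundant ones such as Spink4 among them, while a few abundant products did not pass the test with all libraries. Of 27 tested members (28 listed), 23 fell and 0 rose (median -2.23), and 1 rose without replicate 2. Agr2, the isomerase that folds mucin, was at 6662, 6208, 6358 and 6692 in crypt epi and 749, 504, 520.5 and 487 in villus epi (log2 fold change -3.54 ± 0.17 (SE), adjusted p = 1.96e-06). Spink4, a protease inhibitor, was at 23126, 24385, 22208 and 23963 in crypt epi and 1655, 6631, 1062 and 901 in villus epi (log2 fold change -3.70 ± 0.57 (SE), adjusted p = 0.000784), and it is also on the Paneth cell list. Muc2, the gel-forming mucin, was at 209, 175, 141 and 175 in crypt epi and 74.4, 5.11, 69.9 and 59.1 in villus epi (log2 fold change -2.22 ± 0.75 (SE), adjusted p = 0.0384), with the lowest value in replicate 2. Clca1, a secreted mucus protein, was at 3137, 3699, 2575 and 3125 in crypt epi and 2424, 1009, 1688 and 1504 in villus epi (log2 fold change -0.98 ± 0.27 (SE), adjusted p = 0.0148).

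The trefoil factor gene Tff3, by contrast, was at 16463, 13780.5, 13486 and 17048 in crypt epi and 13217, 4461, 10261 and 9102 in villus epi and was not called with all libraries (adjusted p = 0.0707), although it fell without replicate 2 (log2 fold change -0.49, adjusted p = 0.0342). Zg16, a lectin of mucus granules, was at 18349.8, 15278, 13908 and 19760.3 in crypt epi and 17332, 4880.4, 14033 and 12829.5 in villus epi (log2 fold change -0.58 ± 0.39 (SE), adjusted p = 0.245), and Fcgbp, a mucus protein, at 2691, 2873, 1946 and 2427 in crypt epi and 2977, 2060.4, 2208 and 1938 in villus epi (log2 fold change -0.12, adjusted p = 0.644). For Zg16 and Fcgbp the libraries of the sites overlapped. The sum of the goblet list was 6.16% to 7% of the library in crypt epi and 1.71% to 2.85% in villus epi.

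Cholesterol synthesis was mostly lower in the villus: 14 of 24 tested members fell and 3 rose (median -1.29, with 1 rise under equal totals). Fdft1, squalene synthase, was at 72.4, 75, 76.3 and 72 in crypt epi and 19.1, 1.81, 10.6 and 10.04 in villus epi (log2 fold change -3.02 ± 0.53 (SE), adjusted p = 0.00159). Its crypt and villus values did not overlap, and replicate 2 was the lowest villus library. All 16 cholesterol genes with a promoter in the table held CCAAT in the 250 bases before the start.

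Genes of fat absorption were among the most abundant villus transcripts. Of 29 tested genes of lipid absorption and chylomicron assembly, 24 rose and 2 fell (median 2.62), and the list took 0.724% to 1.33% of the library in crypt epi and 10.4% to 12.8% in villus epi. Apoa1, an apolipoprotein of chylomicrons and HDL, was at 1932, 1869.8, 428 and 2039 in crypt epi and 52257, 16898, 64408 and 62306 in villus epi (log2 fold change 5.02 ± 0.62 (SE), adjusted p = 0.000222). Apoc3, an inhibitor of lipoprotein lipase, was at 227, 209.8, 83.9 and 212 in crypt epi and 11839, 9539, 15310.3 and 15019.6 in villus epi (log2 fold change 6.21 ± 0.34 (SE), adjusted p = 3.2e-06), and Apoc2, its activator, at 155, 130.5, 69 and 138 in crypt epi and 7621, 17282, 10713 and 10661 in villus epi (log2 fold change 6.54 ± 0.32 (SE), adjusted p = 2.21e-06). Apoa4, whose values are given above, rose (log2 fold change 6.03 ± 0.57 (SE), adjusted p = 4.96e-05). These 4 apolipoprotein genes were separated by site in all libraries, with the lowest crypt value in replicate 3 each time.

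Fabp1 and Fabp2 encode the fatty acid binding proteins of enterocytes. Fabp1 was at 3840.3, 4174, 1224 and 3880.3 in crypt epi and 25891, 63757, 33714 and 34327 in villus epi (log2 fold change 3.65 ± 0.45 (SE), adjusted p = 0.000227), and was the most abundant transcript of replicate 2. Fabp2 was at 1513, 1256, 668 and 1577 in crypt epi and 19878, 4849, 24384 and 23092 in villus epi (log2 fold change 3.68 ± 0.54 (SE), adjusted p = 0.000622). The 2 genes went opposite ways in replicate 2, which was highest of the villus libraries for Fabp1 and lowest for Fabp2. Cd36, a fatty acid translocase, was at 12.3, 9.37, 5.77 and 12.1 in crypt epi and 291, 207, 300.1 and 314 in villus epi (log2 fold change 4.71 ± 0.25 (SE), adjusted p = 3.03e-06), and Creb3l3, a transcription factor of lipid genes, had a log2 fold change of 3.62.

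Apob, the scaffold protein of chylomicrons, was not called with all 8 libraries. It was at 112, 109, 65.5 and 87.3 in crypt epi and 1524, 53.7, 1276 and 1175 in villus epi (log2 fold change 2.69 ± 0.99 (SE), adjusted p = 0.0521), and the value of replicate 2 was below all crypt values. Without that library the log2 fold change was 3.83 (adjusted p = 3.24e-07). Mttp, which loads lipid onto Apob, was at 291, 266, 193 and 264 in crypt epi and 1302, 390.1, 1364 and 1289 in villus epi (log2 fold change 1.95 ± 0.40 (SE), adjusted p = 0.00374). One of the 2 members that fell was Clps, the pancreatic colipase cofactor, which is also on the Paneth list, at 3337, 3320.2, 2722 and 3076 in crypt epi and 284, 146, 182 and 171 in villus epi (log2 fold change -4.03).

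Sugar digestion and uptake rose in 13 of 14 tested members, and 0 fell (median 3.41). Treh, trehalase, was at 13.5, 12.3, 6.78 and 15.9 in crypt epi and 479, 75.1, 571 and 542 in villus epi (log2 fold change 4.69 ± 0.64 (SE), adjusted p = 0.00039). Lct, lactase, was at 29.9, 29.7, 9.26 and 25.6 in crypt epi and 619, 110.1, 757 and 666 in villus epi (log2 fold change 4.26 ± 0.65 (SE), adjusted p = 0.000758). Sis, sucrase-isomaltase, had a smaller change, at 207, 145, 77.9 and 193 in crypt epi and 511, 146, 724 and 703 in villus epi (log2 fold change 1.59 ± 0.54 (SE), adjusted p = 0.039), and its villus replicate 2 fell inside the crypt range. Without any other single library Sis missed the threshold (adjusted p from 0.0522 to 0.106), as it did with equal totals (0.0537) and quantile normalization (0.0599). Slc5a1, the sodium-glucose cotransporter of the brush border, was at 407, 407, 136 and 364 in crypt epi and 2052, 3232, 2945 and 2796 in villus epi (log2 fold change 3.17 ± 0.36 (SE), adjusted p = 0.000146). Slc2a2, the basolateral glucose transporter, was at 26.8, 22.5, 2.44 and 23.8 in crypt epi and 205, 76, 419.7 and 416 in villus epi (log2 fold change 3.90 ± 0.79 (SE), adjusted p = 0.00347), and G6pc, glucose-6-phosphatase, had a log2 fold change of 3.90.

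For peptide digestion, 12 of 15 tested members rose and 0 fell (median 2.64). Tmprss15, enteropeptidase, which activates trypsinogen, was at 0.0682, 0.174, 0.0306 and 0.39 in crypt epi and 42.4, 26.4, 46.9 and 49.3 in villus epi (log2 fold change 5.15 ± 0.25 (SE), adjusted p = 2.05e-06). Slc15a1, the PEPT1 peptide transporter, was at 7.13, 6.87, 2.29 and 6.85 in crypt epi and 91.7, 758, 142 and 139 in villus epi (log2 fold change 4.92 ± 0.64 (SE), adjusted p = 0.000307), with a value in replicate 2 several times that of the other villus libraries. Both rose, although replicate 2 was the lowest villus library for Tmprss15 and the highest for Slc15a1. The aminopeptidase gene Anpep was at 328, 362, 161 and 329 in crypt epi and 1876, 184, 2381 and 2273 in villus epi and missed the threshold (adjusted p = 0.0616), as did Naaladl1, at 401, 397, 266 and 362 in crypt epi and 2756, 92.3, 2346 and 2062 in villus epi (adjusted p = 0.226). Without replicate 2 their log2 fold changes were 2.94 and 2.75 (adjusted p = 1.19e-05 and 9.51e-07).

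Amino acid transporters moved both ways, with 10 of 16 tested members higher and 4 lower. Slc6a19, the neutral amino acid transporter of the brush border, was at 39.3, 32.3, 13.3 and 37.2 in crypt epi and 436, 84.1, 659 and 630.3 in villus epi (log2 fold change 3.59 ± 0.67 (SE), adjusted p = 0.00222), and Slc7a15 had a log2 fold change of 5.44. Among those that fell, Slc1a5, a glutamine transporter, was at 136, 158, 110.4 and 118 in crypt epi and 11.1, 4.5, 5.36 and 5.16 in villus epi (log2 fold change -4.19 ± 0.27 (SE), adjusted p = 7.09e-06), and Slc7a5, a leucine exchanger, at 11.5, 10.6, 2.94 and 11.3 in crypt epi and 0.322, 0.0808, 0.424 and 0.41 in villus epi (log2 fold change -2.81 ± 0.38 (SE), adjusted p = 0.000381). Both directions were also present among genes of iron, vitamin and mineral uptake, where 10 of 19 rose and 3 fell. Slc46a1, the folate transporter of the brush border, was at 29.1, 26.9, 16.7 and 26.2 in crypt epi and 583, 114, 804 and 808 in villus epi (log2 fold change 4.18 ± 0.60 (SE), adjusted p = 0.000521). Cubn, a receptor for cobalamin bound to intrinsic factor, had a log2 fold change of 3.78, and S100g, the calcium-binding calbindin of enterocytes, of 3.76. Tfrc, the transferrin receptor by which dividing cells take up iron, was at 81.7, 86.4, 88 and 70.4 in crypt epi and 6.25, 12.4, 2.43 and 13.5 in villus epi (log2 fold change -3.30 ± 0.43 (SE), adjusted p = 0.000322).

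Brush border structure rose in 15 of 21 tested members, and 0 fell (median 1.77, with 1 fall without replicate 2 or with equal totals). Pdzk1, a scaffold of apical transporters, was at 19.2, 24.2, 4.06 and 24.1 in crypt epi and 963, 519, 879.7 and 836 in villus epi (log2 fold change 5.61 ± 0.51 (SE), adjusted p = 4.11e-05). Espn, an actin bundler, was at 29, 31.8, 16.2 and 30.7 in crypt epi and 504, 393, 479 and 456 in villus epi (log2 fold change 4.08 ± 0.22 (SE), adjusted p = 3.33e-06). Vil1, villin, the actin-binding core protein of microvilli, was already at 176, 160.0, 130.0 and 161 in crypt epi and reached 823, 344, 878 and 814 in villus epi (log2 fold change 2.10 ± 0.30 (SE), adjusted p = 0.000536). Of the 3, Vil1 had the highest crypt level relative to its villus level. Alpi, intestinal alkaline phosphatase, was at 496, 609, 190.3 and 488 in crypt epi and 3783, 7739, 3620.0 and 3599 in villus epi (log2 fold change 3.43 ± 0.41 (SE), adjusted p = 0.000178).

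Xenobiotic and retinoid metabolism rose in 30 of 38 tested members, with 0 lower (median 1.96, and 1 lower with quantile normalization). Cyp3a11, a cytochrome P450 that oxidises many drugs, was at 92.2, 91.1, 17 and 91 in crypt epi and 5349, 8624, 4014 and 4083 in villus epi (log2 fold change 6.42 ± 0.55 (SE), adjusted p = 3.13e-05). Cyp2b10, another, was at 37.2, 36.6, 5.1 and 37 in crypt epi and 886, 185, 959 and 936 in villus epi (log2 fold change 4.69 ± 0.75 (SE), adjusted p = 0.000974). Rbp2, the retinol-binding protein of enterocytes, was at 1133, 1051, 408 and 1096 in crypt epi and 9433, 4222, 12306 and 11883 in villus epi (log2 fold change 3.35 ± 0.44 (SE), adjusted p = 0.000339). Crypt epi replicate 3 was the lowest crypt library for each of these genes. Cyp3a11 (ENSMUSG00000056035, chromosome 5, 145854426 to 145879964, minus strand) and Rbp2 (ENSMUSG00000032454, chromosome 9, 98486115 to 98509781, plus strand) are the genes whose promoters are printed above, and the RefSeq starts used there lie inside these spans.

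Genes of purine breakdown and other genes known from the villus tip rose in 13 of 18 tested members (0 lower, median 2.45), and 2 members fell without replicate 2 and 1 with equal totals. Ada, adenosine deaminase, was at 6.69, 5.52, 6.18 and 4.52 in crypt epi and 682, 479, 255 and 339 in villus epi (log2 fold change 5.94 ± 0.30 (SE), adjusted p = 2.35e-06). Nt5e, the ectoenzyme CD73 that makes adenosine, was at 0.74, 0.565, 0.754 and 0.461 in crypt epi and 53.3, 16.1, 14.1 and 10.4 in villus epi (log2 fold change 3.62 ± 0.45 (SE), adjusted p = 0.000244). Slc28a2, a purine nucleoside transporter, was at 0.406, 0.783, 1.31 and 0.607 in crypt epi and 114, 44.5, 33.5 and 30.2 in villus epi (log2 fold change 4.80 ± 0.42 (SE), adjusted p = 3.24e-05), and Xdh, xanthine dehydrogenase, at 33.4, 36.5, 39.4 and 31.4 in crypt epi and 1059, 173, 870.2 and 853 in villus epi (log2 fold change 4.08 ± 0.53 (SE), adjusted p = 0.000292). For Ada, Nt5e, Slc28a2 and Xdh, villus epi replicate 1 was the highest library. Krt20, a keratin of mature cells, was at 335, 287, 289 and 307 in crypt epi and 3069, 448, 1673 and 1471 in villus epi (log2 fold change 2.15 ± 0.50 (SE), adjusted p = 0.00724), again highest in replicate 1, and Klf4, a transcription factor of differentiated epithelium, at 9.57, 8.66, 8.01 and 11.2 in crypt epi and 46.3, 151, 32.7 and 34.8 in villus epi (log2 fold change 2.40 ± 0.46 (SE), adjusted p = 0.00253).

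Several of the largest rises were in genes outside these nutrient groups. Mbl2, the mannose-binding lectin that activates complement, was at 1.81, 1.07, 1.15 and 1.31 in crypt epi and 173, 424, 542 and 560.1 in villus epi (log2 fold change 7.39 ± 0.37 (SE), adjusted p = 2.28e-06). Ly6m, of the Ly6 family, was at 2.49, 0.8, 0.467 and 1.06 in crypt epi and 467, 644, 246 and 233 in villus epi (log2 fold change 7.44 ± 0.40 (SE), adjusted p = 3.03e-06). Selenop, the secreted carrier of selenium, was at 212, 197, 84.7 and 216 in crypt epi and 12503, 6859.6, 13109 and 12960.2 in villus epi (log2 fold change 6.04 ± 0.35 (SE), adjusted p = 4.31e-06), and Pmp22, a membrane protein of tight junctions and myelin, at 14.7, 15, 1.52 and 17.3 in crypt epi and 755, 435, 715 and 684 in villus epi (log2 fold change 5.94 ± 0.61 (SE), adjusted p = 7.9e-05). Each was separated by site, and for Mbl2 and Ly6m the crypt values stayed below 3. Clca4a, Susd2, Dnase1, Sprr2a2, Sectm1b and Apol9a had log2 fold changes of 6.64, 5.90, 5.86, 5.78, 5.77 and 5.66. Clca4a belongs to a family of close copies, so its share of reads is uncertain.

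Mitochondrial transcripts divided by the genome that encodes them. Of 13 mitochondrially encoded genes, 12 rose and 0 fell (median 2.03), while of 36 tested nuclear genes of oxidative phosphorylation 7 rose, 0 fell and 29 were not called (median 0.05). The nuclear counts were unstable: 14 rose and 2 fell without replicate 2, 12 rose without villus epi replicate 1, and the rises and falls were 4 and 7 with equal totals, 11 and 0 with median-ratio scaling and 3 and 15 with quantile normalization. The mitochondrially encoded genes took 3.24% to 4.08% of the library in crypt epi, 5.26% in villus epi replicate 2 and 10.9% to 14.9% in the other villus epi libraries. mt-Co1, of cytochrome oxidase, was at 3557, 3440.5, 3361 and 3097 in crypt epi and 28978, 17446, 19409.5 and 21498 in villus epi (log2 fold change 2.67 ± 0.20 (SE), adjusted p = 1.35e-05). mt-Co3 was at 12966, 11679, 12501 and 12069.6 in crypt epi and 65509.6, 7127, 49178 and 51857 in villus epi and was not called (adjusted p = 0.102), although its log2 fold change without replicate 2 was 2.16 (adjusted p = 5.24e-06). The nuclear gene with the largest rise was Ndufa1, of complex I, at 1011, 1094, 990.2 and 1081 in crypt epi and 2186, 4282, 2994 and 3082 in villus epi (log2 fold change 1.55 ± 0.21 (SE), adjusted p = 0.000346). The nuclear median changed sign with scaling (-0.25 with equal totals, 0.16 with median-ratio scaling and -0.42 with quantile normalization), and the mitochondrially encoded median was 1.31 to 2.14 under them.

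Fuel genes were mixed. In fatty acid oxidation and ketogenesis, 13 of 23 tested members rose and 3 fell, and the rises were 18 without replicate 2, 8 without crypt epi replicate 4 and 7 with equal totals. Cpt1a, which admits long-chain fatty acids to mitochondria, was at 52.2, 44.7, 47.1 and 42 in crypt epi and 20.2, 4.33, 21 and 18.4 in villus epi (log2 fold change -1.67 ± 0.44 (SE), adjusted p = 0.0129). Acot12, an acetyl-CoA thioesterase, rose from 3.78, 4.96, 0.591 and 4.94 in crypt epi to 132, 115, 192 and 185 in villus epi (log2 fold change 5.24 ± 0.44 (SE), adjusted p = 2.55e-05). In glycolysis and gluconeogenesis 9 of 20 rose and 5 fell, with 2 falls without crypt epi replicate 1 or 2 and 3 without replicate 3 or under median-ratio or quantile scaling. The largest rise was that of Pck1, the gluconeogenic carboxykinase, at 32.6, 26.3, 10.5 and 28.7 in crypt epi and 491, 89.2, 1241 and 1126 in villus epi (log2 fold change 4.40 ± 0.81 (SE), adjusted p = 0.00205).

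Transcription factors of the intestine moved in both directions, with 7 of 38 tested members higher and 14 lower, shares near those of all genes tested. Without villus epi replicate 2 the counts were 12 and 17, and without crypt epi replicate 1 there were 9 falls. Hnf4a and Hnf4g encode related receptors that activate enterocyte genes, and they moved apart. Hnf4a was at 346, 334, 299 and 308 in crypt epi and 142, 19.2, 124 and 122 in villus epi (log2 fold change -1.98 ± 0.58 (SE), adjusted p = 0.0208, and -1.31 without replicate 2). Hnf4g was at 130.3, 116, 110.2 and 116 in crypt epi and 337, 152, 295 and 283 in villus epi (log2 fold change 1.11 ± 0.24 (SE), adjusted p = 0.00526). All 4 villus libraries were below the crypt libraries for Hnf4a and above them for Hnf4g. Cdx1, a homeobox factor, was at 299, 370.4, 341 and 367 in crypt epi and 78, 11.3, 104 and 99.5 in villus epi (log2 fold change -2.60 ± 0.64 (SE), adjusted p = 0.00901), while Cdx2, its relative, was at 63, 27.1, 36.9 and 41.5 in crypt epi and 48.6, 4.26, 57.7 and 39.3 in villus epi and was not called (adjusted p = 0.557). Gata4, a factor of the proximal intestine, was at 77.1, 90.3, 87 and 91.8 in crypt epi and 75.9, 3.3, 113 and 104 in villus epi (adjusted p = 0.439), with replicates 1 and 2 below all crypt values and replicates 3 and 4 above them.

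Among the other factors, Ehf, an ETS factor, was at 130.3, 136, 125 and 126 in crypt epi and 10.8, 4.07, 6.64 and 3.51 in villus epi (log2 fold change -4.27 ± 0.30 (SE), adjusted p = 1.02e-05), and Elf3, a second ETS factor, at 271, 234, 274 and 252 in crypt epi and 144, 18.2, 92.2 and 88.5 in villus epi (log2 fold change -1.90 ± 0.55 (SE), adjusted p = 0.0201). Maf, which promotes the program of mature enterocytes, was at 2.26, 1.99, 2.3 and 2.35 in crypt epi and 15.8, 73.9, 14.6 and 14.4 in villus epi (log2 fold change 2.86 ± 0.50 (SE), adjusted p = 0.00161). Prdm1, the repressor BLIMP1, was at 0.56, 0.791, 0.447 and 0.623 in crypt epi and 9.07, 11.6, 5.75 and 6.47 in villus epi (log2 fold change 2.48 ± 0.24 (SE), adjusted p = 5.24e-05). Of these 4 factors, the ETS genes fell and Maf and Prdm1 rose. Of 26 tested nuclear receptor genes 11 rose (17 without replicate 2) and 4 fell. Nr0b2, the repressor SHP that responds to bile acids, was at 2.77, 2.15, 1.07 and 3.66 in crypt epi and 24.1, 24.9, 32 and 35.2 in villus epi (log2 fold change 3.18 ± 0.29 (SE), adjusted p = 3.89e-05), and Pparg, a receptor for fatty acids, had a log2 fold change of 2.37.

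In the BMP and TGF-beta pathway 7 of 25 tested members rose and 6 fell. The ligand gene Bmp4 was at 0.87, 0.89, 0.433 and 0.62 in crypt epi and 10.4, 12.7, 7.27 and 9.14 in villus epi (log2 fold change 2.66 ± 0.22 (SE), adjusted p = 2.31e-05). Bmp3, a ligand that opposes other BMPs, was at 26.3, 25.1, 17.8 and 23.9 in crypt epi and 0.4, 1.02, 0.538 and 0.714 in villus epi (log2 fold change -3.86 ± 0.22 (SE), adjusted p = 3.48e-06). Bambi, a decoy receptor, had a log2 fold change of -3.11. The ligand gene Bmp7 was at 10.6, 8.97, 7.93 and 8.32 in crypt epi and 0.196, 1.67, 0.21 and 0.434 in villus epi (log2 fold change -2.69 ± 0.29 (SE), adjusted p = 9.68e-05), so ligand genes were found on both sides. The target gene Id1 was at 55.9, 44.7, 39.8 and 49.1 in crypt epi and 163, 56.7, 128 and 110.0 in villus epi (log2 fold change 1.17 ± 0.31 (SE), adjusted p = 0.0128), the inhibitory Smad gene Smad7 had a log2 fold change of 1.77, and Bmp1, a protease that processes procollagen, of 2.90.

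Antigen presentation genes of MHC class II rose in 9 of 10 tested members and fell in 0 (median 2.10). H2-Ab1, the beta chain of I-A, was at 295, 306, 893 and 293 in crypt epi and 6673, 11071, 4096 and 3753 in villus epi (log2 fold change 3.89 ± 0.47 (SE), adjusted p = 0.000194). H2-Aa, the alpha chain, was at 122, 112, 476 and 115 in crypt epi and 2981, 2356, 1635 and 1534 in villus epi (log2 fold change 3.62 ± 0.48 (SE), adjusted p = 0.000345), and Cd74, the invariant chain, at 527, 546, 1859 and 490.1 in crypt epi and 7727, 3128, 4414 and 4340.2 in villus epi (log2 fold change 2.69 ± 0.47 (SE), adjusted p = 0.0015). Crypt epi replicate 3 was about 3 to 4 times the other crypt libraries for all 3 genes, and still below every villus epi library. B, plasma and myeloid markers summed to 54.5 to 84.1 in crypt epi and 63.7 to 106 in villus epi, and their part in the result was not tested.

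Interferon-stimulated genes rose in 17 of 30 tested members and fell in 4 (median 1.11), with 2 falls under median-ratio scaling or without crypt epi replicate 2, 3 or 4 or villus epi replicate 3 or 4. Ifit1, which binds foreign RNA, was at 3.28, 1.62, 1.88 and 1.47 in crypt epi and 64, 62.1, 41.5 and 46.4 in villus epi (log2 fold change 4.16 ± 0.25 (SE), adjusted p = 5.05e-06). Isg15, a ubiquitin-like modifier, was at 4.42, 5.53, 3.31 and 4.96 in crypt epi and 68.7, 67.2, 63.9 and 57.1 in villus epi (log2 fold change 3.57 ± 0.19 (SE), adjusted p = 2.7e-06), and Oasl1 had a log2 fold change of 2.80. In epithelial immunity and IgA transport 13 of 23 rose and 2 fell, with 1 fall under median-ratio scaling or without crypt epi replicate 2, 3 or 4 or villus epi replicate 1 or 4. Il15, which sustains intraepithelial lymphocytes, was at 12.8, 9.7, 14.5 and 8.85 in crypt epi and 127, 40.7, 98.3 and 112 in villus epi (log2 fold change 2.84 ± 0.36 (SE), adjusted p = 0.000256), and Il33, an alarmin, at 1.35, 1.18, 0.52 and 1.04 in crypt epi and 22.2, 13.4, 33.7 and 33.2 in villus epi (log2 fold change 3.65 ± 0.32 (SE), adjusted p = 3.57e-05). Btnl1, a butyrophilin-like protein that regulates gamma delta T cells, was at 79.6, 80.1, 77.4 and 66.8 in crypt epi and 340.4, 57.1, 367 and 352 in villus epi (log2 fold change 1.55 ± 0.56 (SE), adjusted p = 0.0496). Villus epi replicate 2 was below all crypt libraries, and without it the adjusted p was 1.06e-07. Without any other single library Btnl1 missed the threshold (adjusted p from 0.0936 to 0.12). It also did so with equal totals (0.0707) and median-ratio scaling (0.0508).

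Inflammasome genes split. Of 21 tested members 6 rose and 6 fell. Gsdmd, the pore-forming gasdermin, was at 70.4, 65.7, 48.2 and 67.1 in crypt epi and 957, 435, 805 and 788 in villus epi (log2 fold change 3.51 ± 0.26 (SE), adjusted p = 1.32e-05). Pycard, the adaptor ASC, was at 908, 985, 1223 and 917 in crypt epi and 91.6, 47.6, 70 and 61.3 in villus epi (log2 fold change -3.91 ± 0.21 (SE), adjusted p = 3.18e-06). The adaptor and the effector were each separated by site, in opposite directions. Nlrp6, a sensor of enterocytes, was at 167, 184, 142 and 149 in crypt epi and 99.4, 19.6, 139.6 and 126 in villus epi and was not called (adjusted p = 0.16).

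Antimicrobial genes known from the lower villus were mostly not called or lower: 1 of 16 tested members rose and 7 fell. Without replicate 2, 4 rose and 9 fell. The list is not limited to villus cells: its largest fall, -8.19, is that of Itln1, described above with the Paneth cell genes. Reg3g, a lectin that kills Gram-positive bacteria, was at 2542, 2224, 5156 and 2317 in crypt epi and 3378, 1740.4, 3305 and 3217 in villus epi (log2 fold change -0.03 ± 0.33 (SE), adjusted p = 0.952). Reg3b, its relative, was at 1877, 1463, 2016 and 1855 in crypt epi and 2729, 521, 4880.1 and 4724 in villus epi (log2 fold change 0.42 ± 0.66 (SE), adjusted p = 0.627, and 1.15 with adjusted p = 0.00118 without replicate 2). The Reg3 genes are close copies, and how their reads were split is uncertain. Retnlb, a resistin-like molecule of goblet cells, was at 475, 295, 445 and 455 in crypt epi and 12.5, 0.188, 4.08 and 3.86 in villus epi (log2 fold change -6.53 ± 0.64 (SE), adjusted p = 6.06e-05).

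Of 33 tested junction and keratin genes, 3 rose, 8 fell and 22 were not called with all libraries. Without replicate 2 most were called, with 14 higher and 14 lower. Cldn2, the claudin of a cation and water pore, was at 105, 101, 114 and 94.9 in crypt epi and 4.85, 0.333, 2.78 and 2.33 in villus epi (log2 fold change -5.05 ± 0.41 (SE), adjusted p = 2.22e-05). Cldn15, a sodium pore, was at 463, 455, 419.6 and 409 in crypt epi and 651, 194, 743 and 724 in villus epi (log2 fold change 0.23 ± 0.41 (SE), adjusted p = 0.673, and 0.69 with adjusted p = 8.09e-05 without replicate 2). Krt19 was at 2871, 2601, 2806 and 2701 in crypt epi and 446, 109, 572 and 528 in villus epi (log2 fold change -2.97 ± 0.49 (SE), adjusted p = 0.00111). Cldn2 and Krt19 were thus higher in all crypt epi libraries, whereas Krt20 was higher in all villus epi libraries.

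Genes of fluid and salt transport moved both ways, with 13 of 33 tested members higher and 11 lower. The named genes of chloride secretion fell. Kcne3, a subunit of a basolateral potassium channel that supports secretion, was at 415, 381, 325 and 409 in crypt epi and 0.842, 0.809, 1.24 and 1.53 in villus epi (log2 fold change -7.52 ± 0.18 (SE), adjusted p = 5.55e-08). Its partner Kcnq1 was at 87.7, 81.6, 77.1 and 81.7 in crypt epi and 2.31, 0.79, 3.18 and 6.41 in villus epi (log2 fold change -4.49 ± 0.39 (SE), adjusted p = 3.13e-05), and Kcnn4, a calcium-activated potassium channel, had a log2 fold change of -5.60. Slc12a2, the NKCC1 cotransporter that loads chloride, was at 20.3, 17.7, 19.6 and 20.6 in crypt epi and 0.183, 1.44, 0.379 and 0.244 in villus epi (log2 fold change -3.78 ± 0.26 (SE), adjusted p = 1.02e-05), and Cftr, the apical chloride channel, at 52.9, 49.1, 42.3 and 43.2 in crypt epi and 13.2, 4.64, 17.2 and 22.9 in villus epi (log2 fold change -1.80 ± 0.41 (SE), adjusted p = 0.00625).

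Channels for water and glycerol rose. Aqp8 was at 0.324, 0.322, 0.622 and 0.124 in crypt epi and 52.3, 7.64, 72.8 and 79.5 in villus epi (log2 fold change 4.93 ± 0.67 (SE), adjusted p = 0.000378), and Aqp7, an aquaglyceroporin, at 0.912, 0.511, 1.57 and 0.708 in crypt epi and 39.98, 101, 41.2 and 45.3 in villus epi (log2 fold change 4.82 ± 0.34 (SE), adjusted p = 1.06e-05). Both were near 0 in all crypt libraries. Car4, a membrane carbonic anhydrase, fell from 486, 559.9, 312 and 509 in crypt epi to 72.9, 24.6, 106 and 102 in villus epi (log2 fold change -2.76 ± 0.45 (SE), adjusted p = 0.00109).

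Endocrine transcripts in these CFP-negative cells differed by hormone. Of 29 tested members (35 listed), 7 rose and 5 fell, with 17 not called, and 3 fell without crypt epi replicate 4 or with quantile normalization. Gcg, which encodes proglucagon and GLP-1, was at 371, 181, 212 and 232 in crypt epi and 1.99, 0.636, 3.49 and 0.303 in villus epi (log2 fold change -6.70 ± 0.42 (SE), adjusted p = 5.63e-06). Sst, somatostatin, was at 188, 125, 124 and 267 in crypt epi and 0.406, 0, 1.68 and 85.1 in villus epi (log2 fold change -5.31 ± 1.28 (SE), adjusted p = 0.00824), with all but a trace of the villus signal in replicate 4. Neurog3, the factor that starts endocrine differentiation, was at 6.98, 6.19, 2.81 and 5.93 in crypt epi and was listed at 0 in villus epi replicates 1, 3 and 4 and at 0.269 in replicate 2. Gip, of K cells, was at 1844, 1925, 367 and 1603 in crypt epi and 1321, 778, 725 and 211 in villus epi and was not called (adjusted p = 0.294), and Cck, cholecystokinin, was at 148, 87.7, 64.6 and 134 in crypt epi and 817, 45, 295 and 363 in villus epi (adjusted p = 0.211). Cck rose without replicate 2 (log2 fold change 2.10, adjusted p = 0.00111).

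Tph1, whose reporter was used to remove EC cells by the sort, was at 1.95, 1.84, 0.733 and 1.76 in crypt epi and 44.9, 87.2, 22.8 and 46.4 in villus epi (log2 fold change 4.20 ± 0.39 (SE), adjusted p = 4.84e-05). Its means in the sorted EC libraries were 5392 in crypt EC and 15282 in villus EC. Chga, chromogranin A, was at 13.9, 11.1, 8.71 and 11.5 in crypt epi and 71.1, 45.8, 58.9 and 97.9 in villus epi (log2 fold change 2.46 ± 0.26 (SE), adjusted p = 8.67e-05), with 16042 in crypt EC and 14338 in villus EC. Both EC markers were thus present at a low level in the CFP-negative villus cells, above all crypt epi libraries. Whether this came from EC cells in the gate was not tested. Of the genes that take up and degrade serotonin, Slc6a4, the serotonin transporter, was at 132, 145, 125 and 119.6 in crypt epi and 254, 92.5, 277 and 227 in villus epi (adjusted p = 0.173) and Maoa, monoamine oxidase A, at 238, 234, 203 and 232 in crypt epi and 553, 152, 597 and 565 in villus epi (adjusted p = 0.124). Neither was called with all libraries. Without replicate 2 both rose, by 0.95 and 1.33 on the log2 scale (adjusted p = 2.81e-05 and 1.04e-06).

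Tuft cell genes were mostly not called (16 of 20 tested, with 1 higher and 3 lower). With equal totals 7 were lower, without villus epi replicate 1 there were 6, and the rises were 2 without villus epi replicate 2 or 4 or with median-ratio scaling and 3 with quantile normalization. Dclk1, the tuft cell kinase, was at 17, 12.8, 6.28 and 10.7 in crypt epi and 4.89, 2.9, 0.982 and 0.776 in villus epi (log2 fold change -2.01 ± 0.45 (SE), adjusted p = 0.00567). Trpm5, the cation channel of taste transduction, was at 4.67, 4.39, 2.7 and 5.09 in crypt epi and 9.08, 3.17, 3.42 and 2.16 in villus epi (adjusted p = 0.909). Ltc4s, leukotriene C4 synthase, rose from 12.1, 13, 6.47 and 10.5 in crypt epi to 44.7, 52.3, 57.4 and 40.8 in villus epi (log2 fold change 2.14 ± 0.24 (SE), adjusted p = 0.000127).

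Markers of cells outside the epithelium were low at both sites, with exceptions in villus epi replicate 2. For T cells and intraepithelial lymphocytes 5 of 26 listed genes passed the filter, and the sum was 22.7 to 25.5 in crypt epi, 40.7 in villus epi replicate 2 and 7.51 to 40.7 over the villus group. Cd3e, of the T cell receptor complex, was at 0.533, 0.322, 0.569 and 0.864 in crypt epi and 0.412, 0.663, 0.728 and 0.751 in villus epi, and Ptprc, the leukocyte antigen CD45, at 0.814, 1.38, 0.494 and 0.514 in crypt epi and 1.69, 24.6, 1.06 and 1.21 in villus epi. Without replicate 2, 1 member rose. The single member that fell was Cd244a, at 17.1, 17.1, 18.9 and 15.7 in crypt epi and 0.326, 0.16, 0.201 and 0.556 in villus epi (log2 fold change -3.80 ± 0.18 (SE), adjusted p = 1.99e-06). The stroma and endothelium list summed to 34.9 to 40 in crypt epi and 42.2 to 241 in villus epi, with 241 in replicate 2. Pecam1, of endothelium, was at 1.17, 0.84, 0.751 and 0.788 in crypt epi and 3.29, 23.1, 1.25 and 1.48 in villus epi, and Dcn, decorin of fibroblasts, at 0.179, 0.0699, 0.618 and 0.789 in crypt epi and 0.197, 130.3, 1.32 and 1.46 in villus epi, while Col1a1 of the same cells was at 0.359, 0.539, 0.326 and 0.838 in crypt epi and 1.07, 1.93, 0.61 and 1.14 in villus epi. In replicate 2, then, Dcn, Pecam1 and Ptprc were raised, Cd3e lay within the range of the other villus libraries, and Col1a1 was the highest of 4 low values.

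Of 23 listed B, plasma and myeloid genes 7 were tested, and 2 of them rose and 0 fell (2 and 1 without replicate 2, and rises of 0 without crypt epi replicate 1 or 4 or with equal totals and 1 without crypt epi replicate 3). Neuronal and glial genes summed to 3.43 to 6.94 in crypt epi and 8.34 to 17.5 in villus epi, and red cell genes to 1.64 to 27 and 7.66 to 41.9. No listed marker was at 0 in all 8 libraries. The part of such cells in the results was not tested.

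**Figure D4:**
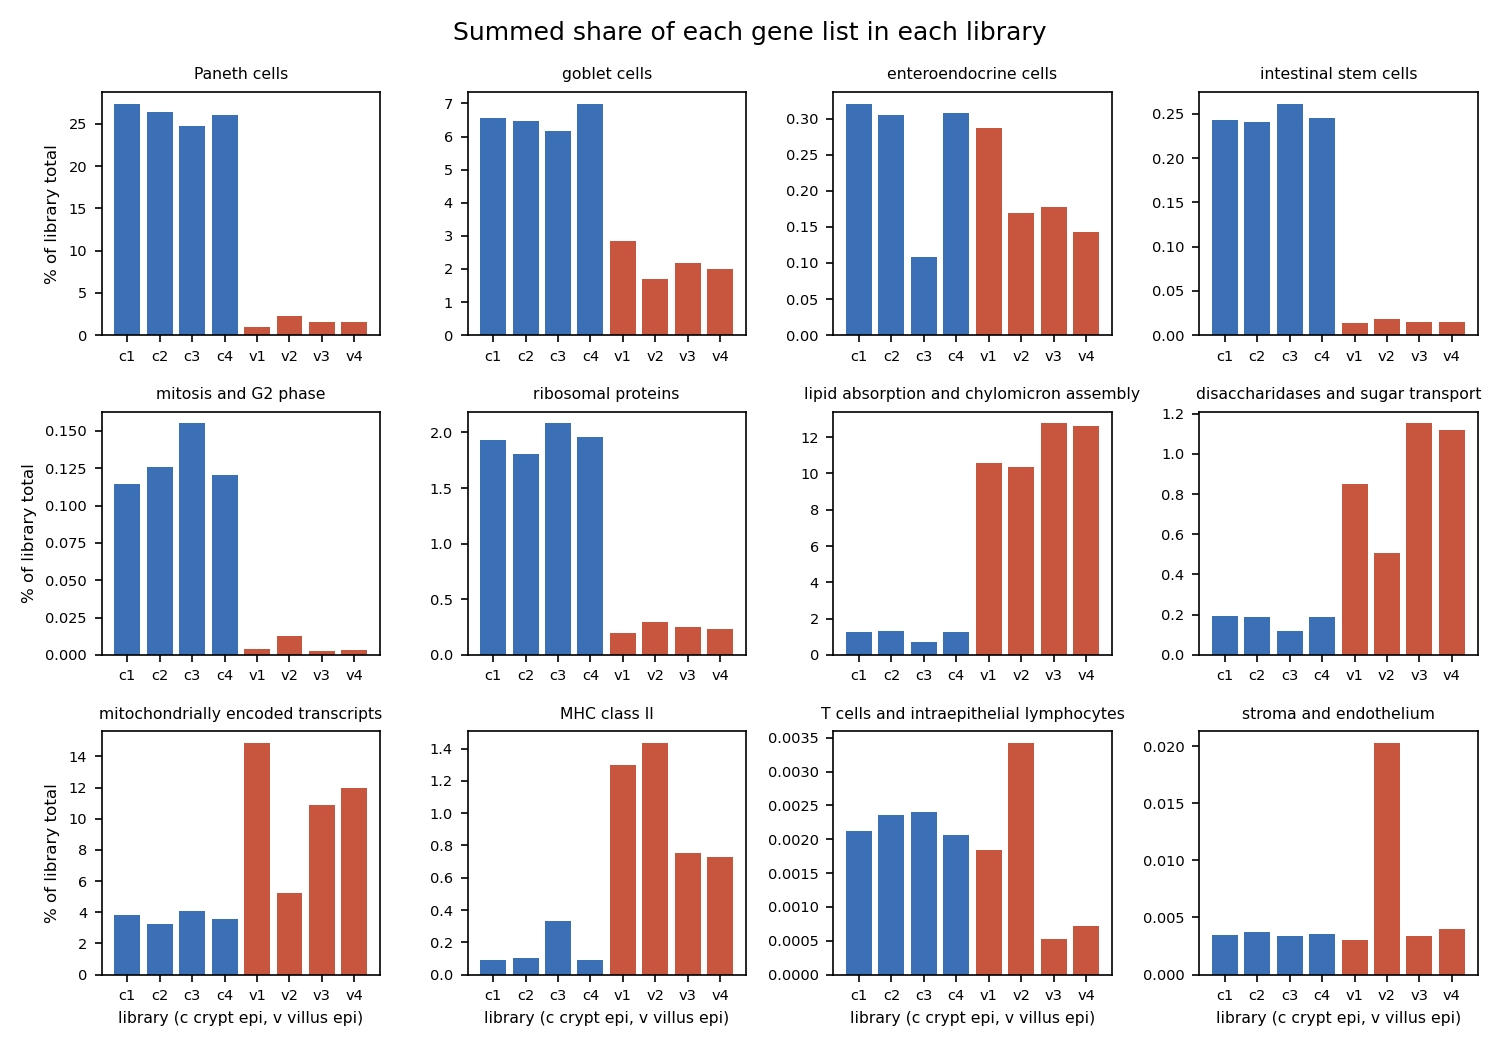
Summed FPKM of 12 gene lists as a percentage of the total of each library (vertical axis, own scale in each panel, starting at 0) for crypt epi replicates 1 to 4 (c1 to c4, blue) and villus epi replicates 1 to 4 (v1 to v4, red). Paneth cell genes take 24.8% to 27.4% in crypt epi and 0.992% to 2.24% in villus epi, mitochondrially encoded transcripts reach 10.9% to 14.9% in 3 villus libraries and 5.26% in v2, and the stroma and endothelium panel is highest in v2.

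The genes that moved replicate 2 away from its group were of many kinds. Actb, cytoplasmic actin, chosen here after its values were seen, was at 1426 to 1993 in villus epi replicates 1, 3 and 4 and at 53214 in replicate 2, against 534 to 817 in crypt epi. Kdelr2, a receptor that returns proteins to the endoplasmic reticulum, was at 106, 6972, 133 and 129, and Lgr4 at 311 in replicate 2 only. At the other end Gpd1, glycerol-3-phosphate dehydrogenase, was at 591, 16.6, 639 and 592, and Mavs, an adaptor of antiviral signalling, at 88.3, 1.51, 94.4 and 92.3. The departure varied with the base composition of the transcripts, and the part of composition in it was not tested. The median difference between replicate 2 and the other 3 villus libraries was 0.42 log2 units in the fifth of genes with the lowest GC content and -0.80 in the fifth with the highest (12241 genes with a value, Spearman's rho across genes -0.303, and genes are not independent). In 5 groups of genes ranked by transcript length the median ranged from -0.30 to 0.14 without such an order. Spearman's rho with GC content, taken in the same way against the rest of the group, was -0.156 to 0.241 in crypt epi. The highest was that of crypt epi replicate 2, which did not stand apart.

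Crypt epi replicate 3 departed in a narrower way. It held the lowest crypt value for 964 of the 1979 genes that rose (48.7%), against 263 to 410 for the other crypt libraries. The same count was not made over all genes tested. Without that count, the share cannot be read as a trait of the genes that rose. This library also had the lowest column total of crypt epi (1045160.2, against 1081594 to 1136983). As a share of the library total, its lipid absorption list was at 0.724%, against 1.27% to 1.33% in the other crypt libraries. Its list of mitosis and G2 phase was at 0.155%, against 0.115% to 0.126%. The part of library size was not tested. Alpi at 190.3, Cyp3a11 at 17 and Slc2a2 at 2.44 were examples of its low values, each less than 0.5 of any other crypt value. Without crypt epi replicate 3, 4 of the called genes named here missed the threshold, Btnl1, Elf3, Muc2 and Sis. Btnl1, Muc2 and Sis also missed it without each of the other crypt epi libraries, and Elf3 without replicate 1.

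A separate test asked whether the site difference of epi cells differed from that of EC cells, the same contrast in sorted cells of 1 endocrine type. In a fit of all 16 libraries, the difference was more positive in epi than in EC for 2258 of 14089 genes tested (16%) and more negative for 3792 (26.9%). The most positive was Igfbp2, an insulin-like growth factor binding protein, with a difference of 7.63 (adjusted p = 3.56e-11). It was near 0 in all epi libraries (0.193, 0.13, 0.399 and 0.674 in villus epi), so that this value came from EC cells, at 252 in crypt EC and 0.576 in villus EC.

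Among the other positive differences, Mbl2 had a difference of 7.40 (adjusted p = 9.49e-09) and was at 0.314 in crypt EC and 0.308 in villus EC. Btnl1 (6.94), Acaa1b (6.51), a peroxisomal thiolase, Ly6m (6.09) and Clca4b (6.08) followed, with adjusted p values of 1.85e-06, 1.99e-08, 5.05e-07 and 1.15e-06. For Btnl1 the EC means were 98.7 in crypt EC and 1.65 in villus EC, lower at the villus, while the epi mean was higher there.

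The most negative difference was that of Gcg, at -7.34 (adjusted p = 0.00207), with 8.9 in crypt EC and 9.44 in villus EC. Agr2 had a difference of -6.37 (adjusted p = 1.16e-07): it fell in epi and was at 814 in crypt EC and 5039 in villus EC. Habp2, a hyaluronan-binding serine protease, had a difference of -6.75, Sst of -6.55, Clps of -6.18 and Defa-ps10 of -5.99 (adjusted p = 6.85e-08, 0.0122, 1.99e-09 and 6.85e-07). Defa-ps10 was listed at 0 in all 4 villus epi libraries.

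For several crypt genes the site difference was not distinguished between the cell types. Olfm4 was at 961 in crypt EC and 2.43 in villus EC, and its difference of -0.10 was not called (adjusted p = 0.753). Lgr5 had a difference of -0.41 (adjusted p = 0.458) and Sox9 of 0.59 (adjusted p = 0.0894). Ribosomal protein genes did differ: Rpl3 had a difference of -3.97 (adjusted p = 1.03e-08), with 111 in crypt EC and 58.9 in villus EC, and Rps19 of -3.05 (adjusted p = 1.83e-07). Krt19, which fell in epi, was at 1427 in crypt EC and 4063 in villus EC (difference -4.49, adjusted p = 7.65e-06), and Hnf4a was at 290.1 in crypt EC and 317 in villus EC (difference -2.12, adjusted p = 0.0124).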

How the data were processed

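RNA of 5000 sorted cells per library was amplified as full-length cDNA and sequenced from unstranded libraries, per the labels' protocols. The authors deposited 1 table of FPKM values for all 16 libraries, made with bcl2fastq 2.20, kallisto and sleuth on mm10, per the submitters' processing notes. How they scaled libraries, and which annotation they used, is not given in the sources used here, and the depth is unknown. The table holds 20072 genes, and 0 columns of other samples.

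From these FPKM values, log2(FPKM + 1) was computed (pseudocount 1) and genes at 1 or more in at least 4 of the 8 epi libraries were tested (3 where a library was left out), leaving 7791 untested. The test was limma 3.58.1 in R 4.3.3 with a variance trend and Benjamini-Hochberg adjustment, called at 0.05. The interaction was fitted on all 16 libraries. Groups follow the titles. Plots came from matplotlib 3.10.9 (Python 3.11.15). The alternatives were another pseudocount, filter, scaling, weighting, trend, block or set of libraries.

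Named genes were the 15 largest rises and 15 largest falls among called genes whose higher group averaged 5 or more, with no overlap and the same call without villus epi replicate 2, leaving out unnamed gene models. To these were added, for each of 51 gene lists, up to 6 called members with the largest change and up to 3 uncalled members with the highest level, the 6 largest interactions in each direction, the 8 genes highest and the 8 lowest in villus epi replicate 2, and a set of landmark genes. Actb falls outside this rule, and some genes it names are not reported here. The gene lists and members were chosen with earlier results of these data known.

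On simulated data with 200 changed genes and 1 spread per gene, the test recovered 26% of site changes of 1 log2 unit and 53% of 2, and 5.95% of its calls were false (12547 genes). With the observed spread of each group, 26% and 63% were recovered and 23.9% of calls were false (12415 genes, 0.229% of unchanged genes called). For the interaction 24% and 59% were recovered with 4.6% false calls (13441 genes), and with unequal spreads 28% and 67% with 33.6% false (13032 genes). In the data themselves 48.4% of tested genes were called between the sites, a far larger share than the 200 genes changed here. Recovery and the false share of calls depend on how many genes change, so these values do not give those of the comparisons above.

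Positions are those of the Ensembl gene models on mm10. Promoters are from RefSeq (32851 promoters of 27025 genes, GRCm38.p6), matched by symbol and searched on both strands over 250 bases.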

Additional observations from a re-analysis of the deposited data

Results flagged for a closer look

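A library was picked out where its gap to the nearest of the other 3 in its group, divided by the range of the group, was above Dixon's 95% critical value for 4 samples. This was examined in both groups for the genes named in the text and for the library measures, and chance alone picks out about 1 in 20 groups. All values below are FPKM unless a log2 difference is named, and no cause was tested for any of them.

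Villus epi replicate 2 accounted for most of the values. The named genes include some chosen for the departure of this library from its group, and Actb, chosen after its values were seen. For such genes the outcome was largely set by the choice, and the chance rate does not apply. The column total of this library was 1190722 and its mean correlation with its group 0.791, each apart from the other 3 libraries. Genes at which it was far above the other villus epi libraries were Defa5 (4.42), Pla2g2a (16.2), Lgr5 (4.24), Top2a (11.2), Mcm3 (0.46), Mcm5 (6.78), Pcna (34.6), Cdkn1a (1136), Spink4 (6631), Slc15a1 (758), Klf4 (151), mt-Nd6 (3201), Maf (73.9), Pparg (40.6), Bmp7 (1.67), Slc12a2 (1.44), Aqp7 (101), Neurog3 (0.269), Alpi (7739), Actb (53214), Ptprc (24.6), Pecam1 (23.1), Dcn (130.3), Lgr4 (311) and Kdelr2 (6972). Genes at which it was far below them were Apoa4 (3364), Pdia6 (30.5), Mttp (390.1), Creb3l3 (514), Vil1 (344), Cyp2b10 (185), Cpt1a (4.33), Hnf4a (19.2), Reg3g (1740.4), Cldn15 (194), Maoa (152), Selenop (6859.6), Sectm1b (1363), Gpd1 (16.6), Mavs (1.51), Clca4b (921) and Btnl1 (57.1).

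Crypt epi replicate 3 was far below the other crypt epi libraries at Apoc3 (83.9), Apoa1 (428), Fabp1 (1224), Slc5a1 (136), Slc15a1 (2.29), Anpep (161), Slc7a15 (0.694), Slc7a5 (2.94), S100g (45.3), Cyp3a11 (17), Cyp2b10 (5.1), Rbp2 (408), Tph1 (0.733), Selenop (84.7) and Pmp22 (1.52). Most of these are genes of absorptive cells that rose in villus epi. It was far above them at Top2a (84.1), H2-Ab1 (893), H2-Aa (476), Cd74 (1859) and Reg3g (5156), which include the 3 named genes of MHC class II.

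In villus epi replicate 1 Mxd1 (684), Agr2 (749), Slc1a5 (11.1), Nt5e (53.3) and Slc28a2 (114) stood apart on the high side, and Guca2b (11372) on the low side. Retnlb was low in crypt epi replicate 2 (295), and Bmp1 high in crypt epi replicate 4 (1.71). Defa24 was high in villus epi replicate 3 (338), and Sst in villus epi replicate 4 (85.1).

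The site difference of epi cells differed from that of EC cells in limma's interaction test for the 12 genes named for it. The difference between the 2 site differences, on the log2 scale, was positive for Igfbp2 (7.63), Mbl2 (7.40), Btnl1 (6.94), Acaa1b (6.51), Ly6m (6.09) and Clca4b (6.08). It was negative for Gcg (-7.34), Habp2 (-6.75), Sst (-6.55), Agr2 (-6.37), Clps (-6.18) and Defa-ps10 (-5.99). The 16 libraries enter this test, and villus epi replicate 2 is among them.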

How the results depend on the processing

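Each comparison was repeated with 2 other pseudocounts (0.1 and 5), 2 other filters, 3 other scalings, array weights, no variance trend, a replicate block, all 16 libraries in 1 fit, and without each library in turn. The 161 called genes named in the text kept their direction under each of these settings in which they were tested (155 with a minimum value of 5). Between 0 and 5 of them missed the threshold under a setting, and these were Btnl1, Sis, Muc2, Hnf4a, Elf3 and Clca1. Clca1 did so with all 16 libraries in 1 fit, and Hnf4a and Elf3 only when a crypt epi library was left out. Of the 26 tested genes of the text that were not called, up to 14 were called with array weights or without villus epi replicate 2.

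Array weights raised the number of higher genes from 1979 to 3560 and that of positive interactions from 2258 to 3549. Leaving out 1 library at a time gave 1693 to 3501 higher and 3450 to 5523 lower genes, and 2098 to 3486 positive and 3493 to 5259 negative interactions. The top of each range was reached without villus epi replicate 2. With all 16 libraries in 1 fit, 2761 genes were higher and 4994 lower.

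The signs that turned all belong to genes that were not called. Log2 fold changes with median-ratio scaling were 0.074 for Efnb1, 0.084 for Reg3g and 0.032 for Trpm5. With quantile normalization they were 0.24 for Efnb1, -0.11 for Reg3b, -0.22 for Cldn15 and 0.40 for Trpm5, and with equal totals -0.073 for Cldn15. With array weights they were 0.18 for Efnb1, 0.082 for Cdx2, 0.27 for Gata4, 0.31 for Reg3g, -0.95 for Lgr4 and 0.85 for Mavs. Without villus epi replicate 2 they were 0.21 for Efnb1, 0.25 for Cdx2, 0.16 for Gata4, 0.20 for Reg3g, 0.02 for Trpm5, -1.22 for Lgr4 and 0.92 for Mavs. Other left-out libraries gave 0.01 for Efnb1 (crypt epi 2), 0.25 for Reg3g (crypt epi 3), and 0.03 (crypt epi 4) and 0.16 (villus epi 4) for Trpm5. Over all leave-one-out fits, the lowest values were -0.91 for Cdx2, -1.42 for Gata4, -0.40 for Trpm5 and -0.83 for Mavs, and the highest for Lgr4 was 0.88. The cause was not tested.

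The labels do not say whether title numbers pair the libraries. The column names of the table carry numbers of their own, of which 2 are shared between the epi groups, under matching title numbers. Deviations from the group means of crypt and villus epi libraries with the same title number correlated at 0.17, -0.15, -0.14 and 0.09 across genes. Libraries did not all correlate best with their own number. With so few libraries per group, and villus epi replicate 2 apart from its group, these correlations cannot show whether libraries share a mouse. With the title number as a replicate block, 1749 genes were higher and 3607 lower, and 2185 interactions were positive and 3650 negative. The block changed 2 of the 161 calls of named genes, those of Sis and Btnl1.

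Depth is unknown, so counting error could not be set beside any value, and 7791 of 20072 genes were not tested because of low values. A list with no tested gene at a minimum value of 5 gave no value under that filter.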

Other observations

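Several gene lists lie outside the groups described above. Over all genes tested, 16.1% rose and 32.3% fell, and 28% and 44.1% without villus epi replicate 2. Immediate early genes respond to growth signals and to cell dissociation. Of 24 tested members 8 fell and 1 rose, with falls at a share near that of all genes tested. With equal totals there were 12 falls, and without villus epi replicate 2 the falls and rises were 12 and 4. Genes of shedding and cell death rose in 9 and fell in 5 of 21, with 14 rises without that library. Antioxidant and selenoprotein genes rose in 7 and fell in 6 of 22, with 12 rises without it and a median that changed sign with equal totals. In the hedgehog and Hippo pathways 2 of 12 tested members rose and 5 fell. General epithelial genes fell in 7 and rose in 2 of 14, with 3 falls without crypt epi replicate 1 and 4 without replicate 2 or 3. Genes of serotonin uptake and degradation fell in 2 and rose in 1 of 6, with 4 rises without villus epi replicate 2 and 0 without another villus epi library or crypt epi replicate 3.

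Genes of bile acid handling and of the ileum rose in 6 of 10 tested members and fell in 0. Genes of the proximal small intestine rose in 9 of 17 and fell in 2. The fractions were taken from the whole length of the organ, and no library is labelled by segment.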
